A study of Mus musculus with 4 samples.

Results

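The genes described here are 10 immediate early and AP-1 genes, Fos, Fosb, Jun, Junb, Jund, Egr1, Atf3, Ier2, Dusp1 and Nr4a1, chosen by name with earlier results of these data known, out of 31053 genes in the count matrices. All 10 were found in each of the 4 single-cell libraries, 2 from normal skin of C57/BL6 mice (control skin) and 2 from skin tumors grown from the 2323 cell line in mice of the same strain (2323 tumor). Per the study's methods, 2323 is a line from a mouse skin tumor model that carried K14rtTA and tetOCre, a Cre recombinase that can be switched on in keratin 14 expressing keratinocytes, with loss of p53. It was injected into the flank of female and male C57BL/6 mice, so the tumors model the growth of 1 transplanted line and the host's own immune system was present. Both groups were minced, digested with collagenase IV for 2 h at 37 °C and sorted for living CD45+ cells, and control skin received no tumor cells. The sources used here do not say that each library was a separate animal, so p-values measure the spread between 2 libraries per group, which may be in part technical.

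The 4 libraries held 2258 to 5176 cells and 34893543 to 73904272 unique molecular identifiers (UMIs, counted RNA molecules). After the study's own filters, 1994 to 4784 cells per library were kept, with a median of 10610 to 13361.5 UMIs per cell, and Ptprc, which encodes CD45, was detected in 92.2% to 96.0% of them. Cells were assigned to types by thresholds on marker genes, and 8545 of the 12848 kept cells fell into an immune gate. Of these gates, 12 had at least 10 cells in every library and were tested. Langerhans cells (401 and 319 cells in control skin, 2 and 6 in the tumors), dendritic epidermal T cells (710 and 778 against 1 and 21) and dermal gamma delta T cells (39 and 49 against 4 and 2) did not. Library pairs shared 1 to 7 cell barcodes. The gate for ILC2, the type 2 innate lymphoid cells, held 10 and 14 tumor cells with a median of 2228 and 2292.5 UMIs, against 8434 and 7939 UMIs in 139 and 122 control cells, so results for ILC2 rest on few and shallow cells. Levels are given as UMIs per 10,000 UMIs of all cells of a type in a library, and fewer cells with a transcript and less transcript per cell cannot be told apart in such sums.

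Immediate early genes are transcribed within minutes of a stimulus without new protein synthesis, and tissue digestion itself is known to switch many of them on. AP-1 is a dimer of basic leucine zipper proteins: Jun, Junb and Jund can pair with each other or with Fos and Fosb, while Atf3 binds related sites, often as a repressor. Jun is a strong activator, Junb a weaker one that can oppose it, and Jund is the one expressed most steadily. Egr1 is a zinc finger factor, Ier2 a small nuclear protein, Dusp1 a phosphatase that turns off MAP kinases, and Nr4a1 an orphan nuclear receptor that in T cells follows signals through the antigen receptor.

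The promoters of the 4 members that changed in T cells are shown because the genes went in opposite directions while their upstream letters share motifs of one family, the sites bound by AP-1, ATF and CREB proteins. The 250 bases before each transcription start were read 5′ to 3′ on the gene's strand from RefSeq on build GRCm38.p6, for Jun at chr4:95052223-95052472 (minus strand), Junb at chr8:84978749-84978998 (minus), Fosb at chr7:19310046-19310295 (minus) and Nr4a1 at chr15:101266596-101266845 (plus). Capitals mark TGACATCA in Jun and TGACG in the other genes, written CGTCA where it lies on the other strand.
Jun: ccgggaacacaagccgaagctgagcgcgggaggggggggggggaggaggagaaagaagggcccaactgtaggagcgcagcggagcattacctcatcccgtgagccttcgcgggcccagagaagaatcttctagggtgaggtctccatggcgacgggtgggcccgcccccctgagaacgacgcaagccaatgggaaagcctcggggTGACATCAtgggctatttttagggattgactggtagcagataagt
Junb: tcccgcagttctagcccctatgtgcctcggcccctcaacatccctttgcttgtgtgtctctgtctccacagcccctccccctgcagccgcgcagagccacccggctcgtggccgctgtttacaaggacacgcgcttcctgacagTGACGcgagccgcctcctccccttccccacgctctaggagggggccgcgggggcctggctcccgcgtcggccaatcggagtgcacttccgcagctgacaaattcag
Fosb: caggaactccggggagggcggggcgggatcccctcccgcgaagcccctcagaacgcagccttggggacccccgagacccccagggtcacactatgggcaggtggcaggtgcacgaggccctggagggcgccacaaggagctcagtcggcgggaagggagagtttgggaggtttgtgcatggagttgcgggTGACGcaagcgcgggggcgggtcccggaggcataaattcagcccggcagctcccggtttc
Nr4a1: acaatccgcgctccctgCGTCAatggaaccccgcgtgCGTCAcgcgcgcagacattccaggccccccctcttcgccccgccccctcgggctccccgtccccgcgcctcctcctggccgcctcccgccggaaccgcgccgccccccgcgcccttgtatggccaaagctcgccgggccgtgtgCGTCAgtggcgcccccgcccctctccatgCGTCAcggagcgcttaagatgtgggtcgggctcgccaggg

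The Jun match lay 45 bases before the start, those of Junb and Fosb at 106 and 60 bases, and Nr4a1 held 4, at 40, 69, 213 and 233 bases. Windows of 8 of the 10 members were read beside 32851 promoters. Egr1 and Ier2 were not read, so the motif counts do not cover them. TGACG, searched on both strands, was found in 6 of these 8 (Fos, Fosb, Junb, Atf3, Dusp1 and Nr4a1) and in 17.8% of all promoters. The share of G and C letters was 47.6% in the Jund window and 58.4% to 74.4% in the rest, against a median of 52.4% over all promoters. Motif counts were not matched for this share. TGACATCA was found in Jun alone and in 2.93% of all promoters. The full CRE, TGACGTCA, which contains TGACG, was found in Dusp1 and in 1.55%, and the AP-1 consensus TGANTCA in none of the 8 and in 6.75%. The CArG box, the site of serum response factor, was found in none of the 8 windows and in 1.47% of all, and TATAAA in Fos alone and in 12.4%. These matches are letters in a short window and were not tied to any measured binding. The windows use RefSeq starts, which for some members differ from the end of the annotated gene. Those of Nr4a1, Atf3 and Dusp1 lie inside the annotated gene, before an inner start. That of Jund ends at chr8:70697738, ahead of a gene that begins at chr8:70698949. The genes lie on 8 chromosomes, Fos at chr12:85473890-85477273, Jun at chr4:95049034-95052222, Junb, Jund and Ier2 on chromosome 8 and Nr4a1 at chr15:101254269-101274795 (GRCm38). The single-exon gene Jun overlaps the antisense gene Junos, and Junb overlaps Prdx2 on the other strand.

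Across the 12 cell types, 12 of 118 tests of a member passed (edgeR quasi-likelihood test, Benjamini-Hochberg adjusted p below 0.05 over all genes of that type). The 5 higher calls were all Jun, in CD4 conventional T cells, Tregs, CD8 T cells, NK cells and cDC2 (type 2 conventional dendritic cells). The 7 lower calls were Junb, Fosb and Nr4a1 in CD8 T cells, Junb, Jund and Nr4a1 in ILC2 and Fosb in cDC1 (type 1 conventional dendritic cells). Over all genes of the same 12 fits, 1.72% of tests were called higher and 1.96% lower. Fos, Egr1, Atf3, Ier2 and Dusp1 passed in no cell type. The number of calls was 7 without either control library (2.01% of all tests called without control 1 and 1.74% without control 2), 26 without tumor 1 (5.28%) and 32 without tumor 2 (8.92%).

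**Figure D1:**
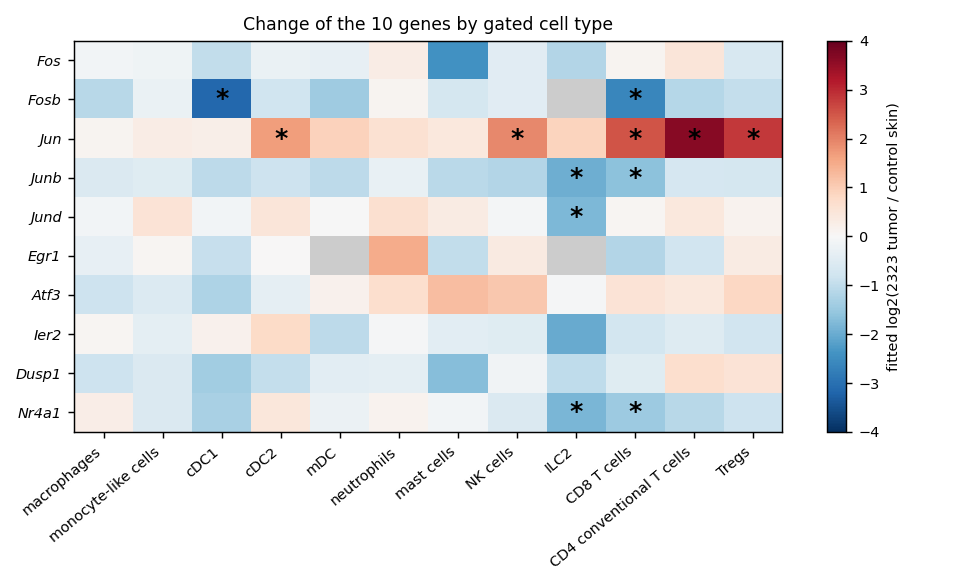
Fitted log2 change in 2323 tumor against control skin for the 10 members (rows) in the 12 tested cell types (columns), with a star where the edgeR test passed and grey where no test or no fold was possible. Jun is above 0 in all 12 columns, Junb below 0 in all 12, and the other members take both signs.

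Jun rose in the 3 T cell gates tested, with the largest fitted change in CD4 conventional T cells. These cells held 0.202 and 0.182 Jun UMIs per 10,000 in control 1 and 2, and 2.37 and 2.76 in tumor 1 and 2. Both tumor libraries lay far above both controls. The fitted log2 change was 3.63 (SE 0.27, adjusted p = 0.0037), a 12.4-fold rise. Few control cells carried the transcript, 7.25% and 9.30% with at least 1 Jun UMI against 40.1% and 49.1% in the tumors, at median depths of 7659, 7261, 6285 and 8517 UMIs. After each cell was thinned to 1000 UMIs these shares were 1.45% and 0% against 18.5% and 11.2%. Jun was the sole member called among 10 in these cells, where 6.94% of all genes were called.

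In Tregs, the Foxp3 expressing regulatory T cells, Jun stood at 0.335 and 0.276 UMIs per 10,000 in control skin and at 1.28 and 3.16 in the tumors. The groups did not overlap, though the tumor libraries were spread widely. The log2 change was 2.84 (SE 0.47, adjusted p = 0.0067). Jun was again 1 of 10 members called, against 5.10% of genes in Tregs. With the gate thresholds doubled the call was lost (log2 change 0.45, adjusted p = 0.71), where 1 control cell that carried markers of another type gave 36 of 46 Jun UMIs of control 2. When cells mixed at the thresholds as used were removed from the doubled gates, a setting added after the data were seen, the call was kept.

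CD8 T cells gave 0.300 and 0.305 Jun UMIs per 10,000 in control skin against 1.75 and 2.10 in the tumors. The control libraries were nearly equal and both tumor libraries were several times higher. The log2 change was 2.51 (SE 0.24, adjusted p = 0.0058). The share of CD8 T cells with Jun went from 14.4% and 13.0% to 48.0% and 48%, and in thinned cells from 3.92% and 0% to 15.4% and 16%. With either control library left out the change was of the same size (2.55 and 2.47), but the adjusted p was 0.10 and 0.089. With doubled gates it was 1.21 (adjusted p = 0.24), where 2 cells of control 1 with markers of another type gave 68 of 106 Jun UMIs, and with such cells removed the call was kept.

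NK cells, which kill without an antigen receptor, had more Jun than the 3 tested T cell gates in both groups. Their levels were 2.14 and 1.12 UMIs per 10,000 in control skin and 4.99 and 7.62 in the tumors, with no overlap. In control skin the untested dendritic epidermal T cells held more Jun, 3.80 and 2.77. Dermal gamma delta T cells, also untested, overlapped NK cells there at 1.07 and 1.61. The log2 change in NK cells was 1.93 (SE 0.35, adjusted p = 0.0497), close to the threshold. No other member passed in NK cells, where 1.02% of genes were called. With replicate number as a block the change was 1.94 and the adjusted p 0.11.

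The macrophage transcripts Lyz2 and Apoe, which free RNA can add to lymphocytes in droplets, were also higher in most of these gates in the tumors. Their summed level went from 0.467 and 2.02 UMIs per 10,000 in control skin to 3.15 and 14.2 in CD4 T cells, from 0.805 and 0.735 to 6.14 and 9.87 in Tregs and from 0.217 and 0.560 to 1.16 and 6.93 in NK cells. In CD8 T cells it overlapped, at 4.65 and 4.56 against 1.88 and 12.6. If Jun had reached the gates at the same share of its library level as these, tumor CD4 T cells would hold 0.270 and 1.15 Jun UMIs per 10,000, and 2.37 and 2.76 were measured. The corresponding pairs were 0.527 and 0.801 against 1.28 and 3.16 in Tregs, 0.162 and 1.03 against 1.75 and 2.10 in CD8 T cells, and 0.0999 and 0.563 against 4.99 and 7.62 in NK cells. The measured Jun was the higher value in each of these 8 tumor samples. In control skin it was the lower value in both CD8 T cell samples, 0.300 and 0.305 against 1.29 and 0.566, and in CD4 T cells of control 2, 0.182 against 0.251. The computed level assumes that Jun enters at the share of these 2 transcripts, and the part of free RNA in the Jun values was not tested.

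Among myeloid cells the rise passed in cDC2 alone. These cells, which present antigen to CD4 T cells, held 1.48 and 2.35 Jun UMIs per 10,000 in control skin and 4.60 and 9.34 in the tumors. The groups did not overlap, with tumor 2 well above tumor 1. The log2 change was 1.67 (SE 0.37, adjusted p = 0.036). Jun was 1 of 10 members called in cDC2, a type in which 9.94% of genes were called. Without control 1 or control 2 the adjusted p was 0.087 in each case, with changes of 1.35 and 2.04.

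In macrophages, the most numerous tumor immune cells, Jun was 5.85 and 6.27 UMIs per 10,000 in control skin and 7.63 and 6.93 in the tumors. Both tumor libraries were above both controls, but the log2 change of 0.11 (SE 0.17) gave an adjusted p of 0.82. Monocyte-like cells gave a log2 value of 0.30, cDC1 of 0.25, mDC (mature dendritic cells) of 0.92 and neutrophils of 0.62, and none of these passed. In ILC2 the tumor libraries held 6 and 0 Jun UMIs in all, and the fitted value of 0.88 had an SE of 1.01. Jun's fitted change was above 0 in each of the 12 types, and both tumor libraries lay above both controls in 8. Over all tests in the 12 types that order was seen in 31.4%.

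**Figure D2:**
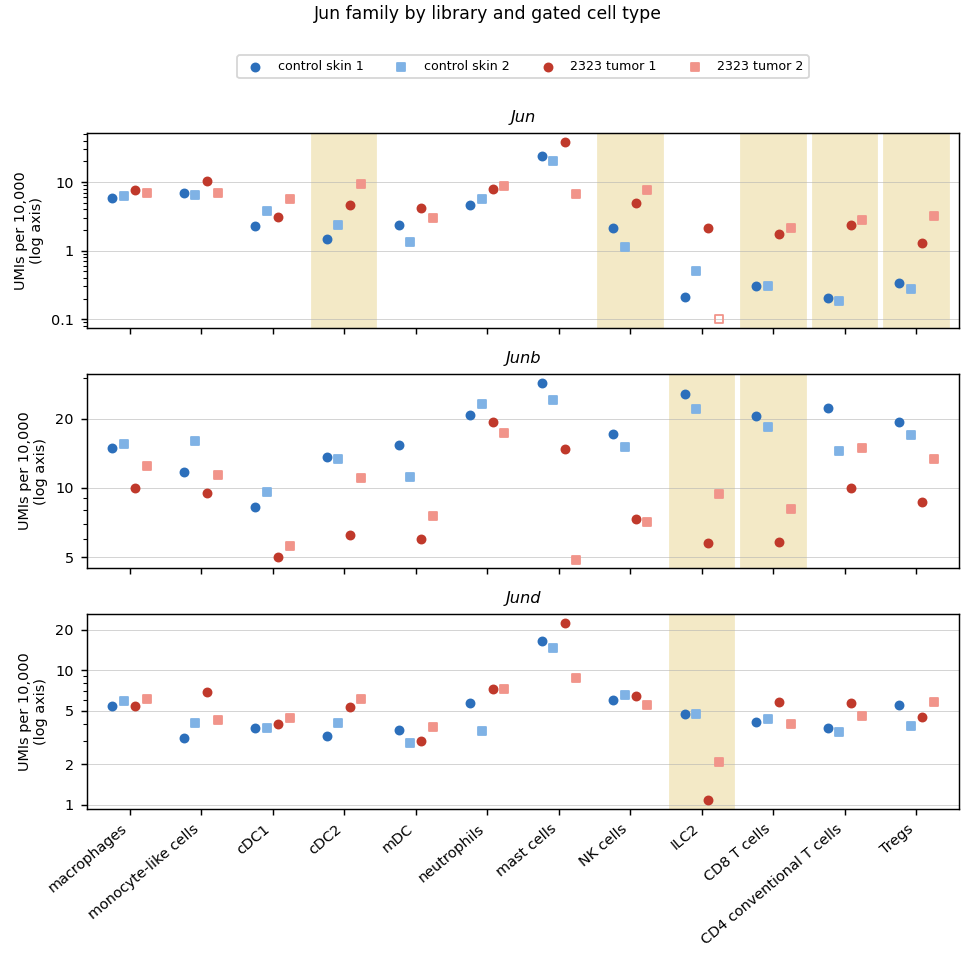
Levels of Jun, Junb and Jund in each library by cell type, in UMIs per 10,000 on a log axis, with control skin and 2323 tumor in separate colors, called types shaded and a level of 0 drawn as a hollow symbol near the foot of the axis. Jun separates the groups in CD4 T cells, 0.202 and 0.182 against 2.37 and 2.76, while Junb lies lower in both tumors in 11 of 12 types.

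Junb had more UMIs than Jun or Jund in 43 of the 48 samples of a type and library, and it went the other way. In CD8 T cells it was 20.6 and 18.5 UMIs per 10,000 in control skin and 5.82 and 8.13 in the tumors. All control values exceeded all tumor values by a wide gap. Junb fell by 1.64 on the log2 scale (SE 0.26, adjusted p = 0.020), a 3.12-fold lower level. Unlike Jun, it stayed detectable in most cells, 96.1% and 98.1% of control and 91.3% and 88% of tumor CD8 T cells. Without control 1 or control 2 the adjusted p was 0.19 and 0.13.

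In ILC2, Junb stood at 25.7 and 22.0 UMIs per 10,000 in control skin and at 5.78 and 9.44 in the tumors. It fell by 1.95 (log2, SE 0.44, adjusted p = 0.024). The tumor values rest on 16 and 45 UMIs, and over all genes the median log2 value in ILC2 was -0.25, so the Junb change lay 1.69 beyond it. In NK cells Junb was 17.2 and 15.1 against 7.33 and 7.09, a log2 value of -1.17 that did not pass (adjusted p = 0.060). Both tumor libraries were below both controls in 11 of 12 types, with CD4 T cells as the exception, where the values of 22.4 and 14.5 in control skin and 9.95 and 14.8 in the tumors overlapped. Over all tests that order was seen in 19.9%.

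Jund passed in ILC2 alone. Its level in control skin ran from a mean of 3.26 UMIs per 10,000 in mDC to 15.6 in mast cells, and its fitted log2 value lay between -0.12 and 0.63 in the 11 types other than ILC2. In ILC2 it was 4.71 in each control library and 1.08 and 2.10 in the tumors. It fell by 1.80 (log2, SE 0.41, adjusted p = 0.026), on 3 and 10 tumor UMIs, which is 1.54 beyond the median of all genes.

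Because Jun and Junb compete for the same partners, the makeup of the Jun family was also computed as each gene's share of Jun, Junb and Jund UMIs, which does not depend on the scaling of a library. In CD8 T cells Jun supplied 1.20% and 1.32% of these UMIs in control skin and 13.1% and 14.8% in the tumors. In CD4 T cells it supplied 0.769% and 0.997% against 13.2% and 12.4%, in Tregs 1.34% and 1.31% against 8.86% and 14.1%, and in NK cells 8.44% and 4.93% against 26.6% and 37.7%. Each of these types showed a family that was almost without Jun, or low in it, in control skin and not in the tumors. Macrophages differed less, 22.4% and 22.6% against 33.2% and 27.2%. The Jun share was higher in both tumors than in both controls in 9 of 12 types, the Junb share lower in 11 and the Jund share higher in 10. These counts are not separate findings, because a lower Junb share raises the summed share of Jun and Jund whatever their own levels do. By level, Jund lay above both controls in both tumors in 5 of 12 types, below in 1 and overlapped in 6. The Jun level lay above in 8 and overlapped in 4. How often other genes show such orders of shares was not tested. With 2 libraries per group an exact permutation test of a single share cannot go below p = 0.333, so no test is given.

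**Figure D3:**
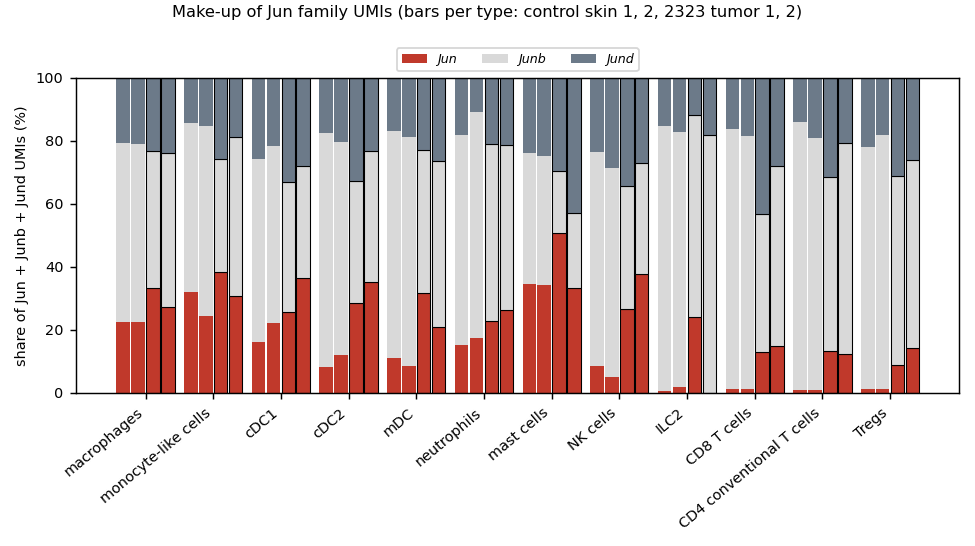
Share of Jun, Junb and Jund among the UMIs of the 3 genes, in percent, for each library of each cell type as stacked bars in the order control 1, control 2, tumor 1 and tumor 2, the tumor bars outlined in black. The Jun part is close to 1% in control CD4 and CD8 T cells and 12.4% to 14.8% in the tumor samples of the same types.

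Among the Fos genes, Fosb fell and Fos did not pass. Fos, the classical partner of Jun, ranged from 0.362 UMIs per 10,000 in tumor ILC2 to 44.0 in control mast cells, and its adjusted p ran from 0.18 to 0.99. In macrophages it was 7.60 and 8.87 in control skin and 9.12 and 7.99 in the tumors, which overlapped. In CD8 T cells tumor 1 was the lowest and tumor 2 the highest library, 0.773 and 2.30 around 1.35 and 1.07 in the controls.

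Fosb, a relative of Fos that pairs with the same Jun proteins, fell in CD8 T cells from 0.868 and 0.746 to 0.144 and 0.157 UMIs per 10,000. Within each group the libraries were close together. The log2 change was -2.60 (SE 0.29, adjusted p = 0.0078), a 6.07-fold lower level. The share of CD8 T cells with Fosb was 29.4% and 25.9% in control skin and 14.4% and 4% in the tumors. Without control 1 or control 2 the change was -2.42 and -2.75 and the adjusted p 0.10 and 0.072.

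In cDC1, which cross-present antigen to CD8 T cells, Fosb was 1.53 and 3.35 UMIs per 10,000 in control skin and 0.491 and 0.115 in the tumors. It fell by 3.13 (log2, SE 0.58, adjusted p = 0.041), and the last value rests on 5 UMIs in 11 cells. Fosb was the 1 of 10 members called in cDC1, where 1.68% of genes were called. The call was lost without control 2 (-2.49, adjusted p = 0.15) and with scaling by total UMIs alone (-2.81, adjusted p = 0.082). In macrophages Fosb was 2.58 and 3.13 against 1.35 and 1.57, with no overlap and an adjusted p of 0.084. Tumor ILC2 held no Fosb UMI in 75340, against a control mean of 0.838 per 10,000, which is at least 2.10-fold lower when 3 counts over the group are taken as the floor. The edgeR test of Fosb in ILC2 did not pass (adjusted p = 0.073). Fosb made up a smaller share of Fos and Fosb UMIs in both tumors in 7 of 12 types, for example 12.9% and 16.4% in tumor macrophages against 25.3% to 26.1% in control skin. The share was larger in both tumors in 1 type, mast cells, and overlapped in 4. How often other pairs of genes show such orders of shares was not tested.

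In control skin the mean Nr4a1 level was 5.17 UMIs per 10,000 in mast cells. Over the 5 tested lymphocyte gates it ran from 4.12 in ILC2 to 5.16 in CD8 T cells. The mast cell libraries lay inside the range of the CD8 T cell libraries, and also inside those of Tregs and of CD4 T cells. Nr4a1 fell in CD8 T cells, where it was 5.81 and 4.51 UMIs per 10,000 in control skin and 1.63 and 2.59 in the tumors, without overlap. The log2 change was -1.47 (SE 0.30, adjusted p = 0.035). Without control 1 or control 2 it was -1.21 and -1.69 and did not pass (adjusted p = 0.31 and 0.17). In ILC2 it was 4.30 and 3.94 against 1.81 and 1.26, on 5 and 6 tumor UMIs, and fell by 1.83 (log2, SE 0.42, adjusted p = 0.025), 1.58 beyond the median of all genes. CD4 T cells gave 5.96 and 3.42 against 2.02 and 2.58, a log2 value of -1.12 that missed the threshold (adjusted p = 0.087). The direction was not shared by macrophages, where 1.30 and 1.28 in control skin stood against 1.79 and 1.67 in the tumors, all tumor values above the controls, with a log2 value of 0.27 (adjusted p = 0.47).

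**Figure D4:**
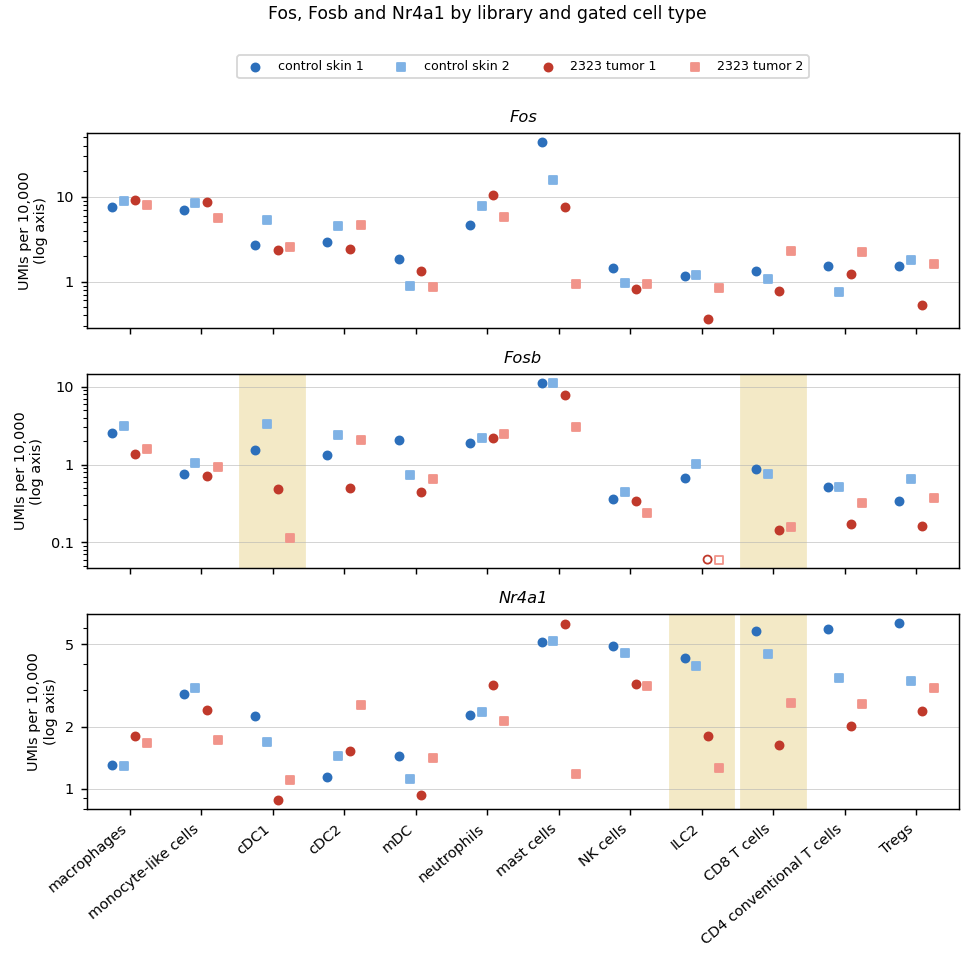
Levels of Fos, Fosb and Nr4a1 in each library by cell type, in UMIs per 10,000 on a log axis, with called types shaded and hollow symbols for a level of 0. Fosb in CD8 T cells is 0.868 and 0.746 in control skin and 0.144 and 0.157 in the tumors, while Fos overlaps between the groups in 8 of 12 types.

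Egr1 was scarce in most types. Its CD8 T cell values, 0.673 and 0.559 UMIs per 10,000 in control skin and 0.307 and 0.300 in the tumors, did not overlap and came nearest to a call, with a log2 value of -1.18 (SE 0.28, adjusted p = 0.057). In mDC it was not tested because of low counts, 1 and 1 UMI in control skin and 23 and 18 in the tumors, which is 0.0425 and 0.0387 against 0.252 and 0.486 per 10,000. Tumor ILC2 held no Egr1 UMI and control ILC2 8 in each library, too few for a fold.

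Atf3 had its highest control means in monocyte-like cells, 12.9 and 10.1 UMIs per 10,000, and macrophages, 11.3 and 9.08. In tumor macrophages it was 6.04 and 6.60, below both controls, with a log2 value of -0.84 (adjusted p = 0.14). In NK cells it was higher in both tumors, 1.16 and 1.05 against 2.18 and 2.51 (log2 1.07, adjusted p = 0.086). Its fitted value was above 0 in 7 of 12 types, and neither of these differences passed.

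Ier2 lay lower in both tumor libraries in 7 of 12 types, for example 1.77 and 1.93 against 1.20 and 1.29 UMIs per 10,000 in CD8 T cells (log2 -0.72, adjusted p = 0.086). Dusp1, the MAP kinase phosphatase, also lay lower in 7, with 8.91 and 8.43 against 4.96 and 5.77 in macrophages (log2 -0.84, adjusted p = 0.13) and 5.53 and 6.18 against 2.37 and 4.47 in cDC2 (log2 -0.96, adjusted p = 0.081). In Tregs Dusp1 stood on the other side, 2.85 and 2.11 against 2.97 and 4.29 (log2 0.55, adjusted p = 0.28). Neither gene passed in any type, and over all tests both tumor libraries lay below both controls in 19.9%.

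Seen by cell type, CD8 T cells and ILC2 held most of the calls. In CD8 T cells 4 of 10 members were called, 1 higher and 3 lower, against 5.67% of genes, and the median log2 value of the members was -0.61 against 0.05 over all genes. None of the 4 passed when either control library was left out (0.0630% and 0.0204% of genes called), while 7 members passed without tumor 1 (10.6%) and 9 without tumor 2 (22.5%). In ILC2 3 of 9 tested members were called, all lower, against 3.64% of genes. A cut at 3000 UMIs per cell left 1 and 3 tumor ILC2, under the 10 cells asked of a tested type. That setting therefore cannot decide these calls. No member passed in ILC2 without control 1 or control 2, where 5 and 4 members could be tested (1.62% and 1.66% of genes called), or with cells of at least 3000 UMIs (0.466%). In mDC 0 of 9 members passed (5.16% of genes), in macrophages 0 of 10 (0.871%) and in monocyte-like cells 0 of 10 (0.0741%), with 4, 4 and 3 members at an unadjusted p under 0.05, as were 20.7%, 15.3% and 8.97% of genes. DESeq2 called 0, 3 and 0 members in these types, and 5.00%, 4.90% and 0.865% of genes.

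Among the 12 tested types mast cells held the highest control mean of every member other than Atf3. Their libraries overlapped those of ILC2 for Junb, and of CD8 T cells, Tregs and CD4 T cells for Nr4a1. The untested dermal gamma delta T cells had a higher Junb mean, with overlap. Their libraries held 27.3 and 33.1 UMIs per 10,000 against 28.7 and 24.1 in mast cells. Other mast cell levels were 44.0 and 15.7 Fos UMIs per 10,000 and 33.6 and 20.5 of Dusp1. Among their tumor libraries tumor 2 stood apart. Its 10 members summed to 31.1 UMIs per 10,000, against 134 in tumor 1 and 179 and 125 in control skin. No member passed in mast cells, where 0.590% of genes were called and 1 member, Fos, had an unadjusted p under 0.05. Jun at 23.8 and 20.3 in control skin lay between 38.3 in tumor 1 and 6.76 in tumor 2. With tumor 1 left out 8 members passed (6.69% of genes), and with tumor 2 left out 3 (9.51%). In neutrophils no member and no gene passed (0% of 3726 genes, 222 at an unadjusted p under 0.05), and 1 member, Atf3, had an unadjusted p under 0.05. DESeq2 called no member in either type, and 51 genes in mast cells and 6 in neutrophils.

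Among the 12 tested types of control skin, Jun was highest in mast cells and lowest in the tested T cell gates. The untested dendritic epidermal T cells, at 3.80 and 2.77 UMIs per 10,000, are outside this ranking. So are the dermal gamma delta T cells, at 1.07 and 1.61. The order of the group means was mast cells, monocyte-like cells, macrophages, neutrophils, cDC1, cDC2, mDC, NK cells, ILC2, Tregs, CD8 T cells and CD4 T cells, a 115-fold span from 22.0 to 0.192 UMIs per 10,000. Of the 11 neighbouring pairs in that order, 6 did not overlap between libraries, and the 5 that did ran from cDC1 through cDC2 and mDC to NK cells, and from ILC2 through Tregs to CD8 T cells. In the tumors the span was 20.7-fold, from 22.5 in mast cells to 1.08 in ILC2, and 2 neighbouring pairs did not overlap. Junb spanned only 2.95-fold in control skin, from cDC1 to mast cells, and 3.47-fold in the tumors, from cDC1 to neutrophils.

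Over all gated immune cells together 3 of 10 members were called, against 31.5% of genes. Fosb fell from 3.29 and 3.46 to 1.07 and 1.36 UMIs per 10,000 (log2 -1.59, SE 0.18, adjusted p = 0.0077) and Junb from 19.0 and 16.7 to 9.24 and 12.0 (log2 -0.86, SE 0.21, adjusted p = 0.039). Jun rose from 4.11 and 3.71 to 6.87 and 6.43 (log2 0.65, SE 0.14, adjusted p = 0.027). These sums mix types whose shares differed, with Langerhans cells and dendritic epidermal T cells almost absent from the tumors, and that part was not tested. The Jun and Junb calls were lost without either control library or without tumor 1, leaving 1 call where 7.29% to 23.5% of genes were called, while that of Fosb was kept.

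Heat shock chaperones, which refold damaged proteins, were set beside Jun. The summed level of 11 chaperone genes was higher in both tumors than in both controls in all 12 types, 16.4 to 100.2 UMIs per 10,000 in control skin and 60.7 to 417 in the tumors. Of 130 tests of these genes 51 were called higher (39.2%) and none lower, where 1.72% of all tests were called higher. The list's median log2 value lay above that of all genes in 12 of 12 types. That median was largest in mast cells (2.76), where Jun overlapped between the groups, and next in CD4 T cells (2.69), where Jun was called. Hsph1 was called in 9 types, Hsp90aa1 in 7 and Hspa1a in 6. In CD4 T cells the sum was 36.3 to 43.9 against 161 to 171, and in macrophages, where Jun did not pass, 82.7 to 100.2 against 154 to 192. The sum of the 10 members did not follow it. It was lower in both tumors in 7 types, higher in 1 and overlapping in 4. For single genes, both tumors lay below both controls in 19.9% of all tests and above in 31.4%. The part of the chaperones in the Jun values was not tested.

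**Figure D5:**
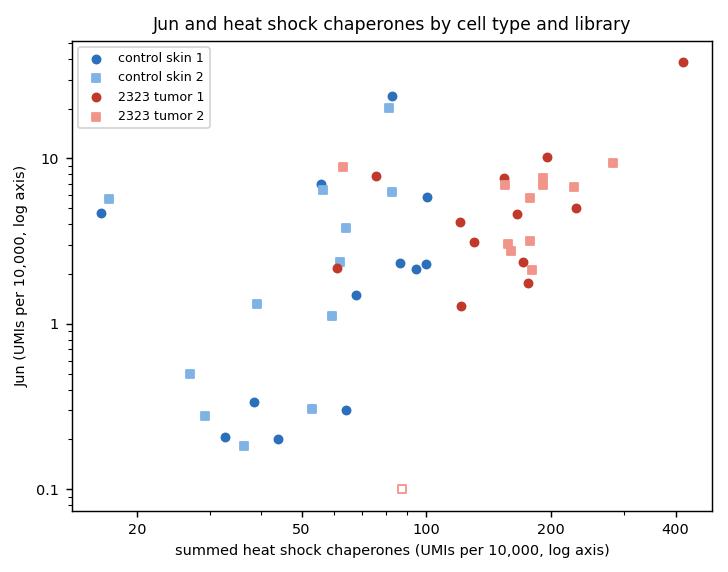
Jun level against the summed level of 11 heat shock chaperones, both in UMIs per 10,000 on log axes, with 1 point per library and cell type and a hollow symbol for the tumor ILC2 library without a Jun UMI. Along the chaperone axis the control points span 16.4 to 100.2 and the tumor points 60.7 to 417, and the Jun levels below 1 are all control points apart from the hollow one.

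The other genes of the pathway were counted by list over the 12 types, where 1.72% of all tests were called higher and 1.96% lower. Of 9 other AP-1 subunits, none was called higher and 2 lower in 74 tests, Atf4 (log2 -1.02) and Batf (-0.99), both in cDC2, and the list's median log2 value lay above that of all genes in 0 of 12 types. Among 34 other immediate early genes 8 of 344 tests were called higher (2.33%) and 22 lower (6.40%). The list's median lay above that of all genes in 1 type, CD4 T cells (log2 0.49 against 0.04), where 2 tests were called higher and 0 lower. Rhob, a small GTPase, rose in 2 types, Plk2 in ILC2 (log2 4.08) and Ier3 in CD4 T cells (log2 3.51). Zfp36l2, a protein that destabilizes messenger RNA, fell in 5 types (log2 -2.76 to -1.30). Gem, an inhibitor of calcium channels, fell in 3 types, among them CD8 T cells and ILC2, and Btg1, which restrains proliferation, in 3.

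Among 10 other dual specificity phosphatases 5 of 77 tests were higher and 5 lower (6.49% each), with the median above in 7 types. Dusp16, which acts on Jun kinases, rose in cDC2 and CD4 T cells (log2 1.27 and 1.86), and Dusp5 fell in CD8 and CD4 T cells (log2 -1.75 to -1.30). Of the kinases and factors that lead to these promoters, 3 of 224 tests were higher (1.34%), all of them Elk3 in the 3 T cell gates. Another 4 were lower (1.79%), among them Srf in Tregs (log2 -2.13), with the median above in 2 types. Of 12 known AP-1 targets, 4 of 88 tests were higher (4.55%) and 9 lower (10.2%), with the median above in 6 types. Cd44, an adhesion receptor, fell in 5 types and Il2, the T cell growth factor, in CD8 T cells (log2 -3.09), while Il1b, a cytokine of myeloid cells, rose in macrophages (log2 2.03) and in NK cells. In NK cells it had no UMI in control skin and 102 and 97 in the tumors (0.948 and 1.53 per 10,000). That is at least 21.1-fold higher with 3 counts over the control group as the floor. Over all gated immune cells Il1b was also higher, 1.83 and 2.60 UMIs per 10,000 in control skin and 10.8 and 12.8 in the tumors. The part of free RNA in the NK cell values of Il1b was not tested.

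Whether a change differed between cell types was tested in 1 fit of all types with library and type terms. Jun (adjusted p = 0.046) and Jund (0.028) passed, 2 of 10 members against 7.64% of 10648 genes, and Fosb (0.053) did not. Compared with macrophages, the Jun change was larger in CD4 T cells by 3.51 (log2, SE 0.88, adjusted p = 0.043) and the Jund change in ILC2 was lower (log2 -2.19, adjusted p = 0.035). These were the 2 calls among the members in contrasts where 0.478% of all tests were called. With median-of-ratios factors neither passed (adjusted p = 0.056 for Jun and 0.30 for Jund, with 5.95% of genes called), and with total UMIs Jun passed (0.039) and Jund did not (0.20, with 5.97%). No member passed the joint test without control 1 or control 2 (0.352% and 1.36% of genes called), 8 passed without tumor 1 (4.87%) and 5 without tumor 2 (6.95%).

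Across the 48 points of 12 types and 4 libraries, the genes whose log levels were most like the mean of the members were Csrnp1 (Pearson r = 0.80), Abr, Ifnar2, Fnip1 and Ppp1r15a (0.76), out of 1937 candidates. The points share libraries and type differences, so this is a description. Egr1 (r = 0.82), Fos (0.81) and Fosb (0.80) followed the mean of the other members most closely and Nr4a1 least (0.29). Within single macrophages all 45 pairs of members correlated above 0 in 3 of 4 libraries and 44 in control 1, with median r between 0.26 and 0.34. By the median over libraries Fos with Jun was the closest pair (0.51, from 0.40 to 0.58), and Fosb with Jun the loosest (0.17, from 0.10 to 0.32). The order differed between libraries, with Jun and Atf3 closer than Fos and Jun in both controls (0.66 and 0.49 against 0.54 and 0.47). Outside macrophages, in types with at least 50 cells in a library, the lowest median r was 0.11, in neutrophils of tumor 2. There 35 of 45 pairs were above 0. The highest was 0.32, in CD8 T cells of control 2, with all 45 above 0. Pairs of other genes are not given, so these counts are not shown to be particular to the members.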

How the data were processed

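Living CD45+ cells of 2 control skins and 2 tumors of the 2323 line were profiled with 10x Chromium 3′ chemistry. The authors deposited filtered count matrices of UMIs per gene and cell, made with Cell Ranger 7.1.0 per the submitters' processing notes (7.0.1 in the matrix header) on mm10, without normalization. The members and lists were chosen with earlier results of these data known.

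Cells with under 1000 UMIs, under 100 genes, over 15% mitochondrial UMIs or a log10 ratio of genes to UMIs under 0.8 were removed, as in the study. Types were gated on summed marker UMIs per 10,000, with thresholds set on these data, so they need not match the study's clusters. Cells that met gates of several lineages (376) and cells in no gate (3702) were left out, as was a gate of 34 cells whose leading genes were not those of B cells. No doublet caller was used in the main analysis. Scores from simulated doublets were an alternative. Counts were summed per library and type and tested with edgeR 4.0.16 (quasi-likelihood, TMM, filterByExpr, R 4.3.3), adjusted per type over all genes at 0.05. Alternatives were median-of-ratios factors, total UMIs, no filter, DESeq2 1.42.0, a replicate block, each library left out, doublet scores, 10% mitochondrial UMIs, 3000 UMIs and doubled gates. The scripts were tested on simulated data.

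All members are named. Genes named from each other list were taken from the up to 3 genes called in the most types per direction. Those of the phosphatase, kinase and AP-1 target lists are not all given. Intervals of levels are not given, and spread is that between libraries. Same-numbered libraries did not deviate together (correlations of -0.27 to 0.09), so the numbers were not treated as pairs. DESeq2 and edgeR received the deposited counts as whole numbers.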

Additional observations from a re-analysis of the deposited data

Results flagged for a closer look

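In the joint fit of 12 cell types, the change of Jun in 2323 tumor differed between types (adjusted p = 0.0461), and so did that of Jund (adjusted p = 0.0275), each by edgeR's test of the type by group terms. The change of Jun in CD4 conventional T cells exceeded that in macrophages by 3.51 on the log2 scale, and the change of Jund in ILC2 differed from that in macrophages by -2.19. These results were picked out because the difference between cell types itself was tested and passed. With median-of-ratios factors both lost their calls (adjusted p = 0.0560 for Jun and 0.299 for Jund), and with total UMIs alone Jund did (0.203). The Jund result rests on 3 and 10 Jund UMIs in 10 and 14 tumor ILC2.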

How the results depend on the processing

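The fitted direction of the called changes held in all 211 alternatives run, and the call was kept in 172 of them. These changes were picked because they passed, and the alternatives reuse the same libraries. A reversed direction was therefore unlikely from the start, and the kept direction is not independent support. Jun in CD4 conventional T cells and Fosb over all gated immune cells kept their calls under each of 14 alternatives. Where 12 member calls by type were made, 33 were made with every gene with at least 1 UMI tested (5.00% of all tests, against 3.68%). That setting gave 1 in mDC, 5 in cDC1, 3 in macrophages, 5 in cDC2, 2 in Tregs, 2 in CD4 T cells, 3 in NK cells, 5 in ILC2 and 2 in mast cells. DESeq2 gave 3 in cDC1, 3 in macrophages, 2 in cDC2, 2 in CD4 T cells, 2 in NK cells and 1 in ILC2. With total UMIs alone there were 0 in cDC1 and 2 in NK cells. With cells of at least 3000 UMIs there were 2 in NK cells and 0 in ILC2, of which 1 and 3 tumor cells were left. Doubled gates gave 2 in cDC1 and 1 in ILC2, and, with cells mixed at the thresholds as used removed (added after seeing the data), 2 and 0. They left 7 and 5 tumor ILC2, or 7 and 4 with those mixed cells removed. In cDC1 they left 9 cells in control 1 and 6 in tumor 2. These cell numbers are under the 10 asked of a tested type. In the joint test of types, median-of-ratios factors gave 0 members, total UMIs 1 (Jun) and no filter 10 (9.15% of genes), against 2. Leaving out 1 library each gave 7 to 32 calls in all, 0 to 1 in mDC, 0 to 2 in cDC1, 0 to 2 in macrophages, 0 to 6 in cDC2, 1 to 5 in Tregs, 0 to 9 in CD8 T cells, 1 to 3 in CD4 T cells, 1 to 2 in NK cells, 0 to 2 in ILC2, 0 to 1 in neutrophils, 0 to 8 in mast cells, 1 to 4 over all immune cells and 0 to 8 in the joint test. The highest adjusted p over a result's alternatives was 0.714 for Jun in Tregs, 0.236 in CD8 T cells, 0.111 in NK cells and 0.0873 in cDC2, 0.188, 0.105 and 0.308 for Junb, Fosb and Nr4a1 in CD8 T cells, 0.148 for Fosb in cDC1, and 0.478, 0.432 and 0.347 for Jund, Junb and Nr4a1 in ILC2, which lost their calls under 7, 5 and 6 of 14 alternatives. The lowest was at most 0.00184 for each of these. The cause of these differences was not tested. In each such fit the lone library of a group is assumed to vary like the other group.

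The replicate numbers do not pair the libraries by any label. With the number as a replicate block, 15 members were called in all (4.19% of all tests), with 3 in cDC2 (10.9% of genes), 0 in NK cells (0.299%) and 2 in mast cells (3.39%). In cDC1, where same-numbered libraries deviated in opposite directions (correlation -0.27), the crossed pairing, added after seeing the data, gave 5 called members, where 7.17% of genes were called against 1.68%. Depth limits ILC2, neutrophils and mast cells most, and Egr1 in mDC and ILC2.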

Other observations

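Cells removed for a mitochondrial share over 15% held lower levels of each member than the kept cells of the same library, other than Egr1 in tumor 1 (0.783 against 0.582 UMIs per 10,000), for example 5.35 against 18.7 Junb UMIs per 10,000 in control 1 and 1.57 against 6.98 Fos UMIs per 10,000 in tumor 1. Cells of the non-immune gates and of the left-out gate of 34 cells, together 33 to 81 per library, held more Egr1 than the kept cells. Their levels were 6.53 against 0.672 UMIs per 10,000 in control 1 and 3.20 against 1.20 in tumor 2. Cells in no gate had Jun levels of 2.47 and 3.36 in control skin and 7.20 and 5.77 in the tumors, with both tumors above both controls. Their Fosb levels were 2.14 and 2.91 against 1.36 and 2.01.

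When the 12 types were given equal weight, mean Junb was 18.2 and 16.7 UMIs per 10,000 in control skin and 9.03 and 10.3 in the tumors, and mean Jun was 4.22 and 4.04 against 7.36 and 5.27. These means include the 2 tumor mast cell libraries that stood far apart.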
